A study of Mus musculus with 204 samples.

Results

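Glul, Slc1a2, Gria2, Gria3 and Grin1 were followed through the libraries of a mouse tissue atlas, as 5 of the 13153 genes with usable values. They were taken by symbol as the genes of the glutamine cycle and of ionotropic glutamate receptors in the deposited values, and each symbol matched 1 gene. The atlas compared 2 groups of C57BL/6J mice, all male and of this inbred strain. DIO (diet-induced obese) mice had eaten a diet with 60% fat for 10 weeks and Lean mice chow with 13.1% fat, with no other treatment or allele in either group. Per the labels the mice were obtained at 6 to 12 weeks of age, while the fat-rich diet is said to have begun at 4 weeks, so the age at sampling is not certain. The design names 5 mice per diet, and tissues probably came from the same mice, but the labels do not tie a library to a mouse.

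Glul encodes glutamine synthetase, which joins ammonia to glutamate. In brain it works in astrocytes, the glial cells that also take up released glutamate through the transporter GLT-1, the product of Slc1a2, and hand glutamine back to neurons, which make glutamate from it again. Gria2 and Gria3 encode AMPA receptor subunits, which carry fast excitatory currents, with the Gria2 subunit limiting calcium entry, and Grin1 encodes the subunit that every NMDA receptor needs. Outside brain, glutamine synthetase removes ammonia in hepatocytes around the central veins of the liver and makes glutamine in fat and muscle.

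On the GRCm38 assembly, in GENCODE M21, Glul (ENSMUSG00000026473) lies on the forward strand at chr1:153899944-153909723 and Slc1a2 (ENSMUSG00000005089) on the forward strand at chr2:102658659-102790784. Gria2 (ENSMUSG00000033981) lies on the reverse strand at chr3:80681450-80802835, Gria3 (ENSMUSG00000001986) on the forward strand at chrX:41400854-41678601 and Grin1 (ENSMUSG00000026959) on the reverse strand at chr2:25291181-25319187. Antisense genes overlap 3 of the members, and their levels in brain were low: Grin1os reached at most 1.09 CPM, Gm13872 (over Slc1a2) at most 0.121 CPM and Teddm2 (over the start of Glul) at most 4.44 CPM. Whether counting used the strand is not stated in the sources used here.

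Glul and Slc1a2 were the members that were higher in DIO than Lean liver, so the promoters of this pair are shown. Both are RefSeq entries on GRCm38.p6, 5′ to 3′ on the gene's strand, from 250 bases before to 50 after the RefSeq start (4 of the 5 members had an entry). The Glul window is chr1:153899679-153899978. The Slc1a2 window is chr2:102706188-102706487, at a start that lies 47.8 kb inside the GENCODE gene. Capitals mark CCAAT, the core read by NF-Y, or CTTTGA, a core read by TCF/LEF factors, on either strand. Both strands were searched, and no 2 matches shown overlap.
Glul: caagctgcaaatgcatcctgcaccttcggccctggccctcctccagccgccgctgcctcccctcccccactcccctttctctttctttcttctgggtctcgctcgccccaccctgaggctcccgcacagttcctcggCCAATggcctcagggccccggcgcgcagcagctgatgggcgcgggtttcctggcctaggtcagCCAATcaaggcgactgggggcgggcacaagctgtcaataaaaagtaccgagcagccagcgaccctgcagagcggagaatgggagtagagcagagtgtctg
Slc1a2: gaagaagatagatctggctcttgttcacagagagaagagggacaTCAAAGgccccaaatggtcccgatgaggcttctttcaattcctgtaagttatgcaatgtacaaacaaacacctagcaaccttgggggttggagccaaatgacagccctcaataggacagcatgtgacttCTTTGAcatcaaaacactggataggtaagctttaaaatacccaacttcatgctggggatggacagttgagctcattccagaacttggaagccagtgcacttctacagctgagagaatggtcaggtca
The Glul window is rich in G and C (64.3%) and holds CCAAT at -113 and -50 from the start and no CTTTGA. The Slc1a2 window has 45.7% G and C and holds TCAAAG at -206 and CTTTGA at -77 and no CCAAT. Of 32851 mouse promoters of the same length, 16% held CTTTGA and 1.73% held it at least 2 times, and 37.4% held CCAAT and 11.7% at least 2 times. The windows of Gria2 and Grin1 held neither. A match describes letters only and is no evidence of binding.

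The 204 libraries came from 21 tissues, with 5 DIO and 5 Lean libraries in each except subcutaneous fat (3 and 5), mesenteric fat (4 and 3) and the EDL muscle (5 and 4). The median library held 20.7 M reads, the shallowest (eWAT DIO 5) 6.58 and the deepest (eWAT DIO 3) 129.7, so both extremes lay in the same group. Values are CPM (counts per M), the reads of a gene per M reads of the whole library. Genes beyond chromosomes 1, 2, X and 3 and the start of 4 were not analysed here, and these include the other glutamate receptor subunits and most transporters. Several libraries stood apart from their labels. The steroid gene Hsd3b1 was at most 0.173 CPM in adrenal DIO 1, DIO 2 and Lean 1 and 4239 to 12653 CPM in the other adrenal libraries. Tbr1, a transcription factor of cortical neurons, reached 10 CPM in 2 hypothalamus libraries and 4 cerebellum libraries. Cr2, a B-cell marker, was 146.6 and 146 CPM in subcutaneous fat Lean 2 and Lean 3 and 268.8 CPM in mesenteric fat DIO 2. In Retro FAT, DIO 3 held 35.2 CPM of the lymphocyte gene Cd2 and Lean 2 held 90.8 CPM of the muscle gene Ttn, and in brown fat Ttn was highest in DIO 5 (765 CPM) and Lean 2 (295 CPM). None of 8 listed brown adipocyte markers was in the values, so the brown fat label was not checked by them. Fits without these libraries are given beside the results they change. In such bulk tissue, fewer cells of a type and less RNA per cell cannot be told apart.

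The members divided into a gene found in every tissue and 4 genes found mainly in brain. Glul had reads in every library. Its tissue means were highest in Midbrain/BS (1795 ± 165 CPM, SD, n = 10), cerebral cortex (1451 ± 145), hypothalamus (1363 ± 117), adrenal (1287 ± 335) and brown fat (1240.2 ± 631), and then eWAT (1225 ± 330.2), liver (1133 ± 189), cerebellum (1115 ± 192) and Retro FAT (1033 ± 184). Neighbours in this order differed by less than 1 SD from the cerebral cortex downwards. Subcutaneous and mesenteric fat held 849.9 ± 231 and 839 ± 347 CPM, stomach (Lesser Curvuture) 636 ± 129, kidney 622 ± 76.5, heart 317 ± 77.2 and colon 301 ± 46.2. The lowest means were in EDL (169.6 ± 51.3), ileum (142 ± 35.5), Gastco red muscle (134 ± 33.1), soleus (113 ± 16.2), duodenum (99.8 ± 53.8) and jejunum (83.0 ± 23.6). Glul therefore spanned a wide range outside brain, with adrenal, brown fat, eWAT and liver inside the range of the brain regions.

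Slc1a2 was at 837 to 3445 CPM in brain, and liver followed at 187 ± 55.7 CPM. Adrenal came next by its mean, which rested on 1 library: DIO 1 held 72.9 CPM, and the median of the 10 was 0.227. Kidney held 6.50 ± 1.54 CPM. In brown fat the transporter had no read in 8 of 10 libraries. Gria2 and Grin1 were at 189 to 723 and 329 to 688 CPM in brain, while outside brain their highest values were 32.0 and 35.8 CPM, both in adrenal. Gria2 had no read in 59 of 164 libraries outside brain, among them all of Retro FAT, and Grin1 had none in 50 of 164. Gria3 was read more widely, at 109 to 282 CPM in brain, 34.6 ± 24.1 in adrenal and 13.7 ± 2.78 in kidney.

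**Figure D1:**
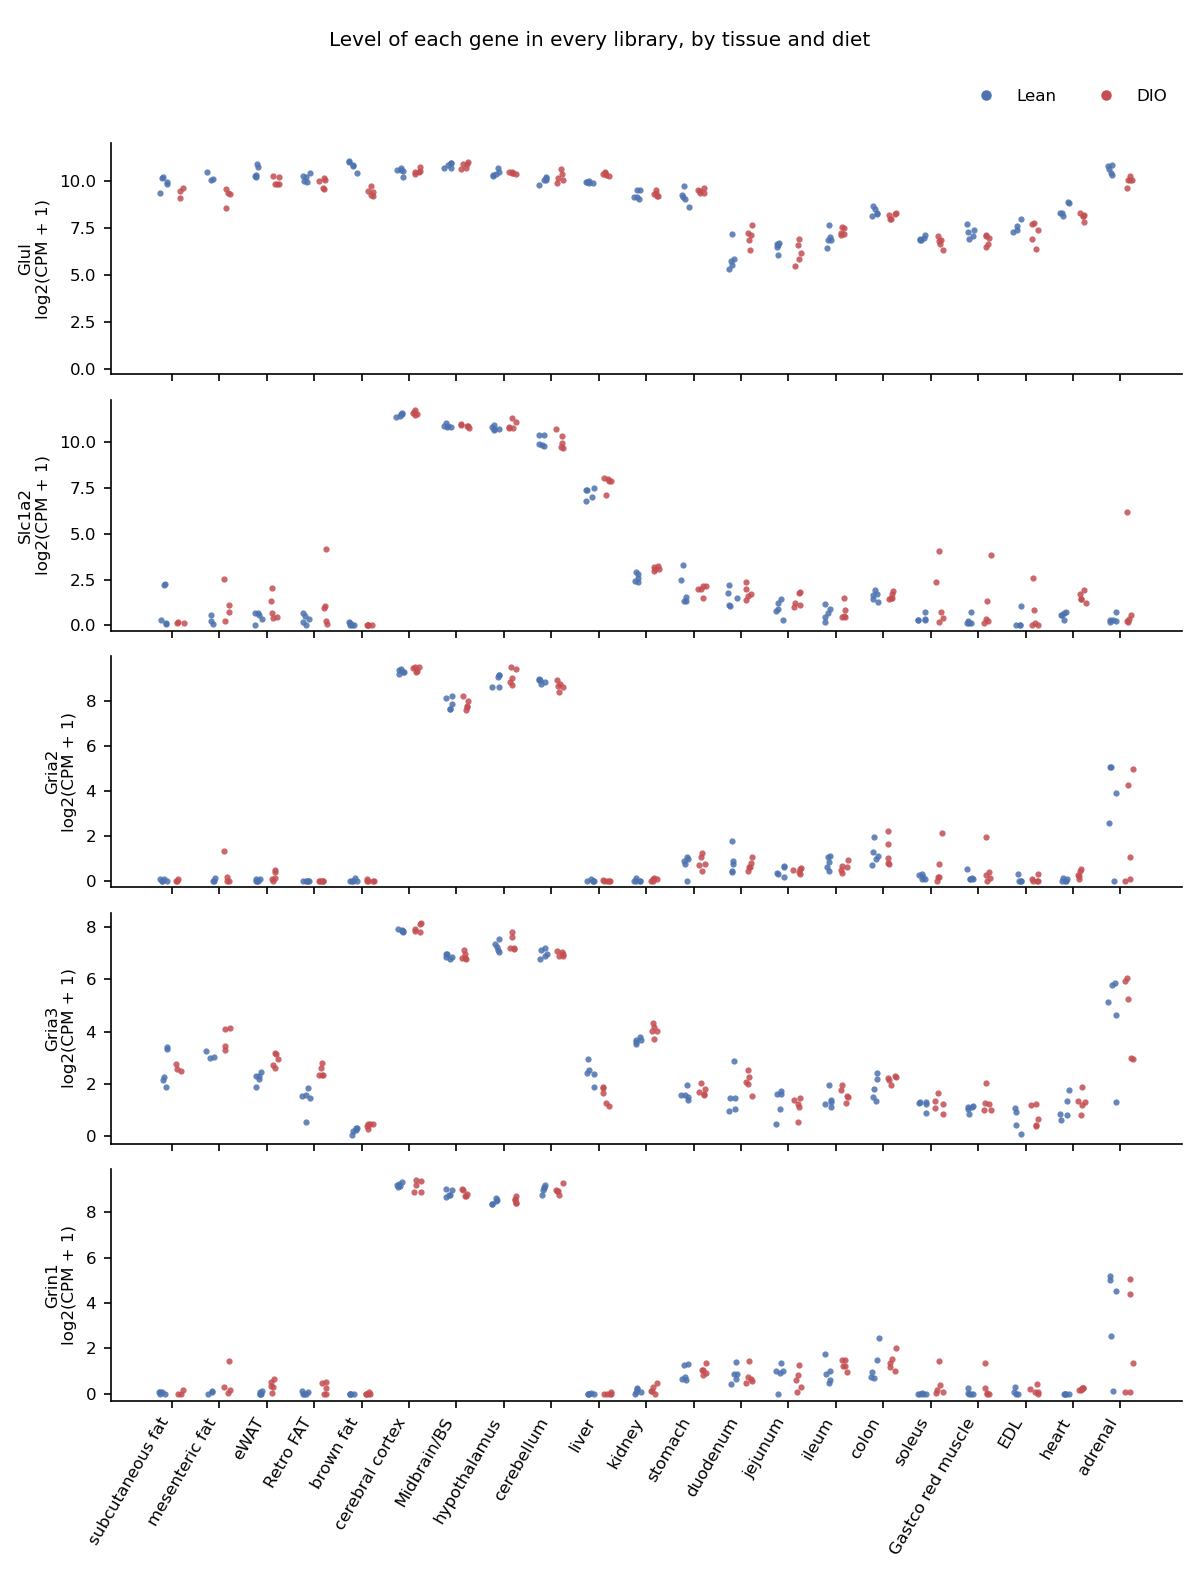
Level of each gene in every library by tissue, as log2(CPM + 1) on the vertical axis, 1 panel per gene, DIO in red and Lean in blue. Glul has points in every tissue, whereas Slc1a2, Gria2, Gria3 and Grin1 are highest in the 4 brain regions, with Slc1a2 also in liver and the receptor genes in adrenal.

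Diet was tested in each tissue with limma on log2(CPM + 1), for genes whose mean reached 10 CPM in the tissue, with p adjusted by the Benjamini-Hochberg method over all genes tested in that tissue and a threshold of 0.05. These p-values measure only the spread between libraries. Of 43 pairs of member and tissue that could be tested, 5 passed: Glul in mesenteric fat, eWAT, brown fat and liver, and Slc1a2 in liver. Glul was tested in 21 tissues, Gria3 in 7 and Slc1a2, Gria2 and Grin1 in 5 each, so the other members are mostly below the filter outside brain.

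In fat, glutamine synthetase RNA was lower in DIO. The log2 change of Glul was below 0 in 5 of 5 depots and passed in 3, with the deepest fall in brown fat. The share of all tested genes that passed was large in the same depots: 12.5% in subcutaneous fat, 44.9% in mesenteric fat, 54.1% in eWAT, 45.1% in Retro FAT and 44.1% in brown fat. A call on its own therefore sets Glul apart from few genes.

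In brown fat Glul was 835, 581, 591, 703 and 658 CPM in DIO (674 ± 103, SD, n = 5) and 1369, 2075, 1784, 1750.4 and 2055 CPM in Lean (1807 ± 287). All 5 DIO libraries lay below all 5 Lean libraries. The log2 change was -1.42 ± 0.13 (SE; adjusted p = 9.8e-06). Across 21 alternatives it ran from -1.51 to -1.33 and passed in each. Ttn, a skeletal muscle gene, varied widely in this depot, from 0.300 to 765 CPM in DIO and 1.31 to 295 CPM in Lean, and with its level as a covariate the Glul fall still passed.

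In mesenteric fat Glul was 635, 365, 610.5 and 753 CPM in DIO (591 ± 163, n = 4) and 1051, 1383 and 1078 CPM in Lean (1171 ± 184, n = 3). The groups did not overlap, and the log2 change was -1.02 ± 0.26 (adjusted p = 0.0198). Without DIO 2, the lowest library and the one with Cr2, the change was -0.81 (0.00161). With any 1 of the 3 Lean libraries left out it no longer passed: without Lean 1, Lean 2 or Lean 3 adjusted p was 0.0567, 0.0804 or 0.0566. With no filter on low genes it was 0.0536.

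In eWAT Glul was 892, 1189.8, 909, 1157 and 909 CPM in DIO (1012 ± 149) and 1667, 1209, 1908, 1236 and 1169.8 CPM in Lean (1438 ± 331). The groups overlapped, since Lean 5 lay under DIO 2, and Lean 1 and Lean 3 stood well above the rest. The log2 change was -0.49 ± 0.18 (adjusted p = 0.0378). It missed the threshold without DIO 1 (0.0763), DIO 3 (0.0805), DIO 5 (0.0605), Lean 1 (0.0982) or Lean 3 (0.107), as it did with no filter (0.1398) and with a covariate of library composition, the mean log2 level of 5 genes minus that of 5 others (0.0708).

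In Retro FAT Glul was 777, 1003, 743, 1038 and 1105 CPM in DIO and 965, 1159.8, 990.3, 1197 and 1347 CPM in Lean. These overlapped, with a log2 change of -0.28 ± 0.17 (adjusted p = 0.181). In subcutaneous fat it was 529, 763 and 683 CPM in DIO and 1165, 907, 648, 986 and 1119 CPM in Lean, with a change of -0.54 ± 0.23 (adjusted p = 0.162). Only Lean 3, one of the Cr2 libraries, reached into the DIO range, and without Lean 2 and Lean 3 the change was -0.74 (adjusted p = 0.00482).

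Rescaling to the median gene of each depot made the falls larger, because the median of all tested genes lay above 0 in most depots: 0.40 in mesenteric fat, 0.17 in eWAT, 0.25 in Retro FAT, 0.05 in brown fat and -0.02 in subcutaneous fat (log2). On that scale Glul fell by 1.39 in mesenteric fat (adjusted p = 0.0129), 0.68 in eWAT (0.00999), 0.55 in Retro FAT (0.0304) and 1.49 in brown fat (2.3e-05), and subcutaneous fat stayed short of the threshold (0.221).

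The fall differed between depots. The F test of diet by depot gave adjusted p = 0.00178 for Glul, in a comparison in which 60.5% of genes passed. Among the 4 white depots alone adjusted p was 0.174. The diet effect on Glul was weaker than in brown fat by 0.88 ± 0.27 (log2, SE) in subcutaneous fat (adjusted p = 0.0312; 10.3% of genes passed), by 0.93 ± 0.25 in eWAT (0.00316; 38%) and by 1.13 ± 0.25 in Retro FAT (9.1e-04; 28.2%). For mesenteric fat the difference was 0.40 ± 0.28 (0.307; 10.7%). No pair of white depots differed past the threshold, with adjusted p between 0.187 and 0.897. Without the fat libraries that stood apart the F test gave adjusted p = 0.00193. The differences from brown fat were then 0.87 ± 0.23 in eWAT (0.00192) and 1.16 ± 0.24 in Retro FAT (4.4e-04), while those of subcutaneous fat (0.62 ± 0.26, 0.140) and mesenteric fat (0.55 ± 0.26, 0.1299) did not pass.

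**Figure D2:**
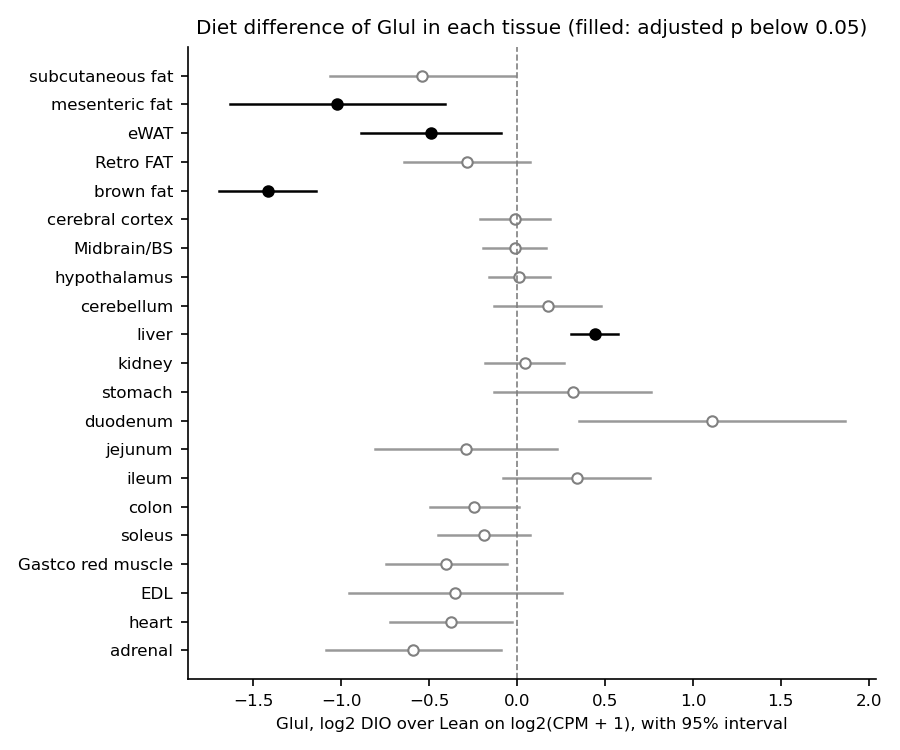
Diet change of Glul in each tissue as log2 of DIO over Lean with its 95% interval, filled where adjusted p was under 0.05 (limma). Brown fat (-1.42), mesenteric fat (-1.02) and eWAT (-0.49) are filled on the left, liver (0.44) is filled on the right, and the 4 brain regions sit near 0.

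**Figure D3:**
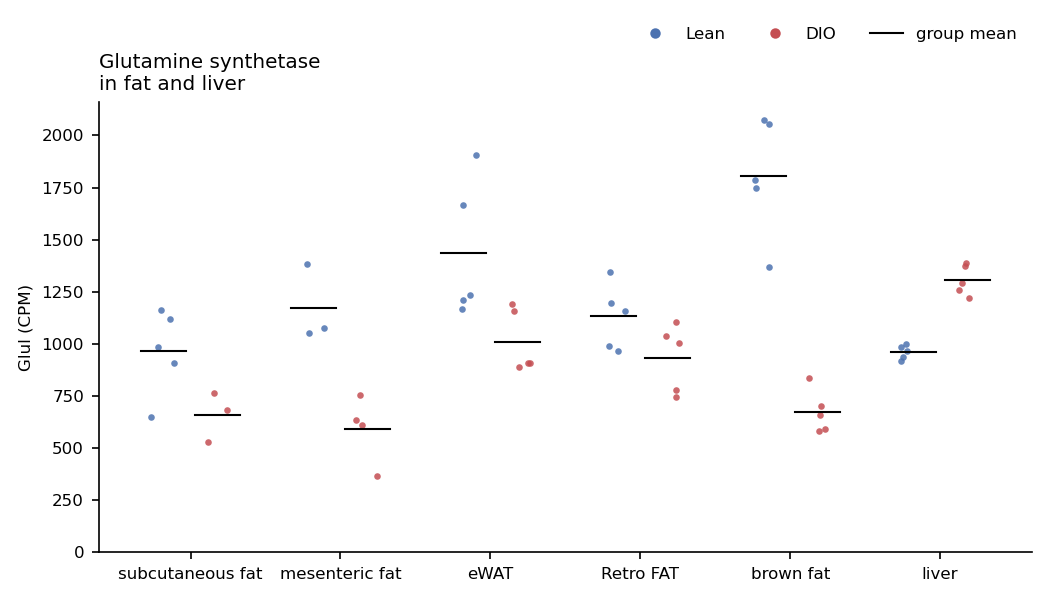
Glul in CPM on the vertical axis in every library of 5 fat depots and liver, DIO in red and Lean in blue, with bars at the group means. In brown and mesenteric fat every DIO point lies below every Lean point (means 674 against 1807 and 591 against 1171 CPM), and in liver every DIO point lies above (1305 against 961 CPM).

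The list of enzymes that use or make glutamine or glutamate had 12 of 31 genes in the deposited values. In mesenteric fat 2 of 7 tested rose and none fell (median log2 0.10, against 0.40 over all genes). In eWAT 3 of 7 rose and 1 fell (0.10 against 0.17), in Retro FAT 2 of 7 rose and 1 fell (0.11 against 0.25), and in brown fat 1 of 6 rose and 3 fell (-0.13 against 0.05). In subcutaneous fat none of 7 passed (0.14 against -0.02). On the rescaled values the counts of rises and falls were 2 and 3 in mesenteric fat, 1 and 2 in eWAT, 0 and 1 in Retro FAT and 1 and 3 in brown fat. Over all genes 537 of 2232 passed on that scale in mesenteric fat, 1176 of 2155 in eWAT and 813 of 1746 in brown fat. Without the libraries that stood apart the list counts were 1 and 1 of 6 in mesenteric fat, 1 and 1 of 7 in Retro FAT, 1 and 2 of 6 in brown fat and 2 and 1 of 6 in subcutaneous fat. In those fits 1505 of 2182 genes passed in mesenteric fat and 675 of 1742 in brown fat. The list's median log2 was then 0.01 in mesenteric fat (0.35 over all genes) and 0.15 in Retro FAT (0.24). It was -0.10 in brown fat (0.04) and 0.10 in subcutaneous fat (0.10). The share of all genes that passed was not counted for Retro FAT on rescaled values. Nor was it counted for Retro FAT and subcutaneous fat in those fits, so list counts there cannot be set against it.

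Kyat3, an aminotransferase that takes glutamine as an amino donor, fell in eWAT, Retro FAT and brown fat. In eWAT it was 3.20, 7.88, 5.67, 6.32 and 14.3 CPM in DIO and 17.8, 19.8, 19.9, 14.1 and 27.1 CPM in Lean, which overlapped by 1 library on each side (-1.39, adjusted p = 0.00149). The DIO mean of Kyat3 in eWAT was under 10 CPM, so there it was tested only through its Lean level. Its change was -1.05 in Retro FAT (adjusted p = 0.00151) and -0.52 in brown fat (0.00117), and these 3 falls passed on the rescaled values too. In subcutaneous fat it passed without Lean 2 and Lean 3 (-0.63, adjusted p = 0.00411). Ass1, argininosuccinate synthetase, rose in mesenteric fat (15.4 against 3.55 CPM; 1.80, adjusted p = 0.00401), eWAT (17.0 against 4.12 CPM; 1.64, 0.00345) and Retro FAT (25.7 against 9.18 CPM; 1.79, 0.0204, and 0.0544 on rescaled values). The Lean mean of Ass1 was under 10 CPM in each of these depots, so there it was tested only through its DIO level. In mesenteric fat without DIO 2 Ass1 was below the filter, and in Retro FAT without DIO 3 and Lean 2 it did not pass (0.0849). Gclm, the modifier subunit of the glutathione synthesis enzyme, rose in eWAT (0.74, adjusted p = 0.0251, and 0.0910 on rescaled values) and fell in brown fat (-0.50, 0.00906), where Ctps2, CTP synthase, fell too (-0.27, 0.0179, and 0.0656 without DIO 5 and Lean 2).

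Of the transporter list, 4 of 30 genes were in the values and 1 was tested in these white depots. This was Slc25a12, the mitochondrial carrier that exchanges aspartate for glutamate, which rose in mesenteric fat (23.4 against 7.96 CPM; 1.39, adjusted p = 0.00912), eWAT (26.4 against 10.7 CPM; 1.22, 1.4e-04) and Retro FAT (20.8 against 8.75 CPM; 1.14, 0.00263), on the rescaled values and without the libraries that stood apart as well. In mesenteric fat and Retro FAT the Lean mean of Slc25a12 was under 10 CPM, so there it was tested only through its DIO level. Of the receptor partners and scaffolds, 9 of 46 genes were in the values. In mesenteric fat 4 of 7 tested rose (median log2 0.36 against 0.40 over all genes), in eWAT 6 of 7 (0.51 against 0.17), in Retro FAT 6 of 7 (0.51 against 0.25), and in brown fat 3 rose and 1 fell of 7 (0.07 against 0.05). After rescaling the rises numbered 0 in mesenteric fat, 2 in eWAT, 1 in Retro FAT and 3 in brown fat, with 1 fall each in eWAT and brown fat. Without the libraries that stood apart the rises numbered 6 of 7 in mesenteric fat (median log2 0.353, against 0.353 over all genes) and 3 of 7 in Retro FAT (0.497 against 0.243). In that mesenteric fit 1505 of 2182 genes passed, 86.25% of them higher in DIO, so the 6 rises do not set this list apart. Dlg3, the scaffold SAP102 of NMDA receptors, had the strongest rise of this list in eWAT, at 85.9, 35.7, 53.8, 52.9 and 25.7 CPM in DIO and 12.2, 7.96, 12.5, 10.0 and 10.3 CPM in Lean (2.06, adjusted p = 2.7e-05), and it fell in brown fat (-0.47, 0.00225). With all libraries no gene of these lists passed in subcutaneous fat.

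Cell type markers moved in the same depots. Ctss, a macrophage protease, averaged 461 CPM in DIO and 43.8 in Lean mesenteric fat, 1604 and 52.6 in eWAT, 949.6 and 46.3 in Retro FAT and 17.6 and 4.89 in brown fat. Of the macrophage list, 5 of 5 tested genes rose in mesenteric fat, eWAT and Retro FAT. Of all tested genes 44.9%, 54.1% and 45.1% passed in these depots, in either direction. Among the genes that passed, 84.6% were higher in DIO in mesenteric fat and 67.1% in eWAT. Marker counts were taken only with all libraries and without rescaling. The summed level of 3 adipocyte genes was 3946 to 11018 CPM in DIO and 14355 to 20473 in Lean eWAT, and 7396 to 14629 against 16280 to 18854 CPM in mesenteric fat. In brown fat that sum was 10215 to 11591 CPM in DIO and 9270 to 11873 in Lean, and of the 3 genes Irs1, an insulin signalling adaptor, fell (21.9 against 41.2 CPM; -0.87, adjusted p = 9.3e-06). In brown fat 3 of 3 endothelial genes also rose (median 0.80, against 0.05 over all genes), among them Eng (143 against 68.6 CPM; 1.08, adjusted p = 3.7e-05), as did 2 of 2 macrophage genes. In that depot 44.1% of all tested genes passed, and 65.8% of those were higher in DIO. Ctss in brown fat, with a Lean mean of 4.89 CPM, was tested only through its DIO level. The part of these cell types in the Glul and Dlg3 values was not tested.

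In liver, glutamine synthetase and the glutamate transporter were both higher in DIO. Glul was 1219, 1372, 1259, 1291 and 1387 CPM in DIO (1305 ± 72.4) and 967, 935, 985, 917 and 999 CPM in Lean (961 ± 34.0). All DIO libraries lay above all Lean libraries, and the log2 change was 0.44 ± 0.06 (adjusted p = 5.4e-04). In liver 27% of tested genes passed. On rescaled values the change was 0.34 ± 0.06 (0.00314), and leaving out any 1 library kept the call. In a single fit over all 21 tissues, which shares 1 estimate of the spread, it did not pass (0.153).

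Slc1a2 was 256, 234, 136, 238 and 260.2 CPM in DIO liver (225 ± 50.8) and 127, 164, 165, 111 and 180.3 CPM in Lean (149 ± 29.3). The groups overlapped because DIO 3 lay among the Lean libraries while the other 4 DIO libraries were above all of them. The change was 0.57 ± 0.19 (adjusted p = 0.0402). The call did not hold on rescaled values (0.101), with edgeR on recovered reads (0.0802), with no filter (0.0843), with the covariate of library composition (0.338), in the single fit (0.554) or in 7 of 10 fits that left out 1 library (up to 0.0914).

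The other liver genes of the enzyme list gave 1 rise and 2 falls among 8 tested (median -0.08, against 0.09 over all genes). Cps1, which fixes ammonia in the first step of the urea cycle, was 3211, 2048, 2507, 2489 and 2174 CPM in DIO and 2378, 4378, 4142, 5072 and 3905 CPM in Lean (-0.65 ± 0.19, adjusted p = 0.0242). Lean 1 lay within the DIO range. Kyat1, a glutamine transaminase, was 101 CPM in DIO and 155 in Lean with no overlap (-0.63 ± 0.14, adjusted p = 0.00845). Ctps2 rose from 11.1 to 14.5 CPM (0.35, 0.0389), a call that did not hold on rescaled values (0.0869). Ass1 did not pass (-0.13, 0.477), and none of 7 tested partner genes passed.

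Among genes known from pericentral hepatocytes, the cells that hold Glul, the list had 2 genes in the values. Slc13a3, a dicarboxylate transporter, was 21.1, 47.7, 33.1, 29.6 and 22.3 CPM in DIO and 9.96, 14.0, 11.8, 11.9 and 10.7 CPM in Lean, with no overlap (1.27 ± 0.19, adjusted p = 7.7e-04). Rhbg, an ammonia channel, was 0.857 to 1.73 CPM in DIO and 0.264 to 1.09 in Lean, below the filter. The periportal list had 3 genes in the values: Cps1 fell, and Ass1 and Pck1 did not pass. Of 3 tested macrophage genes Cybb, an oxidase subunit, rose (16.3 against 10.6 CPM; 0.55, adjusted p = 0.0490). Ctss (0.32, 0.313) and Mrc1 (-0.07, 0.655) did not pass. Of 3 adipocyte genes Fabp4, a fatty acid binding protein, rose (15.1 against 7.84 CPM; 0.83, 0.00831). Irs1 (-0.33, 0.0910) and Pck1 (-0.34, 0.179) lay below 0 and did not pass. The Lean mean of Fabp4 was under 10 CPM, so it was tested only through its DIO level. The part of these cells in the liver values was not tested.

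In kidney neither tested member passed, and 0.0505% of tested genes did. Glul was 636, 633, 579, 713 and 583 CPM in DIO and 553, 549.8, 525, 727 and 723 CPM in Lean (0.04, adjusted p = 0.882). Gria3 was 15.3, 17.1, 19.0, 12.2 and 15.2 CPM in DIO and 11.9, 11.9, 10.6, 12.9 and 11.05 CPM in Lean, where 1 DIO library lay inside the Lean range (0.39 ± 0.11, adjusted p = 0.125; 0.0247 with DESeq2 on recovered reads). Slc1a2 was below the filter at 6.92, 7.51, 7.54, 8.07 and 8.59 CPM in DIO and 4.43, 6.66, 4.90, 4.23 and 6.11 CPM in Lean. These did not overlap, and in a fit with no filter the change was 0.49 ± 0.13 (adjusted p = 0.228; 0.0154% of genes passed).

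In the gut only Glul could be tested, and it passed in none of 5 segments. The share of genes that passed was 0.0493% in stomach, 0.289% in duodenum, 10.1% in jejunum, 0% in ileum and 0% in colon. In duodenum Glul was 78.2, 198, 135, 145 and 112 CPM in DIO (134 ± 44.1) and 38.0, 51.9, 139, 55.9 and 45.3 CPM in Lean (66.0 ± 41.4). Lean 3 lay in the DIO range and the other 4 Lean libraries below every DIO library. The change was 1.11 ± 0.34 (adjusted p = 0.175), and without Lean 3 it was 1.41 (0.00401). With the covariate of library composition it was 0.46 (0.885). Lean 3 was also the highest Lean duodenum library in the neuronal gene Snap25 (22.3 CPM), in Slc1a2 (3.60 CPM) and in Gria2 (2.37 CPM). Other neuronal genes are not given for it. The changes were 0.32 in stomach, -0.29 in jejunum, 0.34 in ileum and -0.24 in colon (adjusted p from 0.277 to 0.880). The F test of diet by segment gave adjusted p = 0.0196 for Glul, with 17.8% of genes passing, and 0.0506 without duodenum DIO 2 or 0.0507 without duodenum Lean 1.

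In muscle, heart and adrenal no tested member passed. The share of genes that passed was 1.71% in soleus, 5.06% in Gastco red muscle, 0.0684% in EDL, 0.114% in heart and 0.128% in adrenal. Glul had changes of -0.19, -0.40, -0.35 and -0.38 in soleus, Gastco red muscle, EDL and heart (adjusted p from 0.181 to 0.994). In adrenal it was 786, 1225, 1042, 1032 and 1048 CPM in DIO and 1727, 1827, 1325, 1274 and 1581 CPM in Lean, which did not overlap (-0.59 ± 0.23, adjusted p = 0.350). Without the 3 libraries low in Hsd3b1 the change was -0.51 ± 0.21 (0.274).

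In brain no diet difference passed for any of the 5 genes in any of 4 regions. None of 20 pairs passed in limma, 1 had an unadjusted p under 0.05, and every pair of groups overlapped. In cerebral cortex, Midbrain/BS, hypothalamus and cerebellum 0% of all tested genes passed, so the lack of calls is not particular to these members. The log2 changes ran from -0.22 to 0.18, and the 95% intervals from -0.44 to 0.56. Slc1a2 in cerebral cortex was 3445, 3033, 3130.1, 3239 and 2894 CPM in DIO and 2983, 2935, 2641, 2823 and 3066 CPM in Lean (0.12, adjusted p = 0.842). Gria2 in cerebellum had the lowest unadjusted p, at 404, 419, 331, 385 and 474 CPM in DIO and 496, 427, 456, 480.4 and 481 CPM in Lean (-0.22, adjusted p = 0.99997). The F test of diet by region passed for 0% of genes, with adjusted p = 0.999 for the members. Without the libraries that held Tbr1 no member passed in hypothalamus (n = 8) or cerebellum (n = 6).

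Between regions, in contrast, every member differed. With both diets together and diet as a term, the F test over 4 regions gave adjusted p = 4.4e-10 for Glul, 6.0e-16 for Slc1a2, 5.8e-16 for Gria2, 2.2e-16 for Gria3 and 1.2e-10 for Grin1. The same test passed for 97.3% of genes, so passing it marks nothing about these genes, and the order and size of the differences are what follows. Of 30 contrasts of gene and pair of regions 27 passed. The share of all genes that passed was 70.1% between cerebral cortex and Midbrain/BS, 76.1% between cerebral cortex and hypothalamus, 74.1% between cerebral cortex and cerebellum, 68.5% between Midbrain/BS and hypothalamus, 74.3% between Midbrain/BS and cerebellum and 74.7% between hypothalamus and cerebellum.

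Glul was highest in Midbrain/BS, with a lowest, median and highest library of 1566, 1860.2 and 2000.4 CPM. Cerebral cortex followed (1177, 1456 and 1658 CPM), then hypothalamus (1215, 1353 and 1639) and cerebellum (859.5, 1084 and 1543). Midbrain/BS exceeded cerebral cortex by 0.31 ± 0.07 on the log2 scale (cortex minus Midbrain/BS -0.31, adjusted p = 3.0e-04) and cerebellum by 0.70 ± 0.07 (7.3e-11). Cerebral cortex and hypothalamus did not differ past the threshold (0.09 ± 0.07, adjusted p = 0.265), but they did on rescaled values (0.30, 0.00217).

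Slc1a2 had another order. Cerebral cortex was highest (2641, 3008 and 3445 CPM for the lowest, median and highest library) and lay above every library of the other regions. Midbrain/BS (1735, 1886 and 2135 CPM) and hypothalamus (1643, 1783 and 2527 CPM) did not differ past the threshold (0.02 ± 0.09, adjusted p = 0.858), and without the Tbr1 libraries the difference was 0.10 (0.0445), and without those and 3 more libraries low in Oxt, the oxytocin gene, it was 0.07 (0.264). Cerebellum was lowest (837, 961 and 1717 CPM), below cerebral cortex by 1.48 ± 0.09 (adjusted p = 6.9e-17). The cerebellum values fell in 2 sets: the 4 libraries with Tbr1 held 1307 to 1717 CPM and the other 6 held 837 to 979 CPM. Without the Tbr1 libraries the gap to cerebral cortex was 1.74. In hypothalamus the pair with Tbr1, DIO 1 and DIO 3, were also the highest in Slc1a2, at 2527 and 2241 CPM.

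Kcnj10, a potassium channel of astrocytes, did not share the cortical peak of Slc1a2, at 145 to 250.1 CPM in cerebral cortex and 681 to 1021 CPM in Midbrain/BS (cortex minus Midbrain/BS -1.99). Per kilobase of exon, Slc1a2 stood at 0.530 ± 0.057 of Glul in cerebral cortex, 0.355 ± 0.062 in hypothalamus, 0.271 ± 0.031 in Midbrain/BS and 0.252 ± 0.043 in cerebellum (mean ± SD, n = 10). Without the Tbr1 libraries it was 0.332 ± 0.042 in hypothalamus (n = 8) and 0.226 ± 0.027 in cerebellum (n = 6). The length used is the union of all annotated exons, 13.1 kb for Slc1a2 and 3.32 kb for Glul, and the size of the ratio depends on it.

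The receptor genes all had their highest mean in cerebral cortex and parted below it. Gria2 was 581, 642 and 723 CPM in cerebral cortex (lowest, median, highest), 389, 520.3 and 723 in hypothalamus, 331, 441 and 496 in cerebellum and 189, 221 and 298 in Midbrain/BS. Midbrain/BS lay below every library of the other regions, and was below cortex by 1.49 ± 0.10 (adjusted p = 2.6e-16). Hypothalamus exceeded cerebellum by 0.23 ± 0.10 (0.0310), and this was lost without the Tbr1 libraries (0.08, adjusted p = 0.495) and on rescaled values (0.176).

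Gria3 was 223, 234 and 282 CPM in cerebral cortex, 132, 148 and 221 in hypothalamus, 109.9, 125 and 145 in cerebellum and 109, 114 and 139 in Midbrain/BS. Cerebral cortex lay above every other library, by 1.02 ± 0.07 over Midbrain/BS (adjusted p = 5.5e-16). Midbrain/BS and cerebellum did not differ past the threshold (-0.09 ± 0.07, adjusted p = 0.239).

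Grin1 was 470.4, 588 and 688 CPM in cerebral cortex, 433, 507 and 619.7 in cerebellum, 404, 443 and 530.02 in Midbrain/BS and 329, 367 and 423 in hypothalamus. It was the 1 receptor gene that was lowest in hypothalamus, below cerebral cortex by 0.67 ± 0.07 (adjusted p = 5.2e-11) and below cerebellum by 0.50 ± 0.07 (hypothalamus minus cerebellum -0.50, 4.6e-08). Cerebral cortex exceeded cerebellum by 0.18 ± 0.07 (0.0194), a call lost without the Tbr1 libraries (0.0569). Cerebellum exceeded Midbrain/BS by 0.16 ± 0.07 (Midbrain/BS minus cerebellum -0.16, 0.0313), a call lost on rescaled values (0.365). No contrast changed sign on rescaled values or without those libraries.

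The mean ratios between these RNAs varied by region, a difference that was not tested. Lengths are the union of all annotated exons (15.5 kb for Gria2, 9.86 for Gria3 and 9.7 for Grin1), so the size of a ratio depends on them. In CPM, Gria2 exceeded Grin1 in cerebral cortex (means 655 against 587) and hypothalamus (520 against 366). Per kilobase of exon, Gria2 was 2.20 ± 0.35 times Gria3 in cerebellum, 2.02 ± 0.18 in hypothalamus, 1.72 ± 0.11 in cerebral cortex and 1.26 ± 0.22 in Midbrain/BS (mean ± SD, n = 10). Grin1 was 3.24 ± 0.69 times Gria2 in Midbrain/BS, 1.93 ± 0.28 in cerebellum, 1.44 ± 0.20 in cerebral cortex and 1.16 ± 0.20 in hypothalamus. In the first ratio, over all libraries, cerebellum and hypothalamus differed by less than the SD of cerebellum. Without the Tbr1 libraries the ratios were 2.39 ± 0.29 and 1.90 ± 0.36 in cerebellum and 2.00 ± 0.20 and 1.23 ± 0.16 in hypothalamus. These are RNA ratios, which do not give the makeup of receptors.

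**Figure D4:**
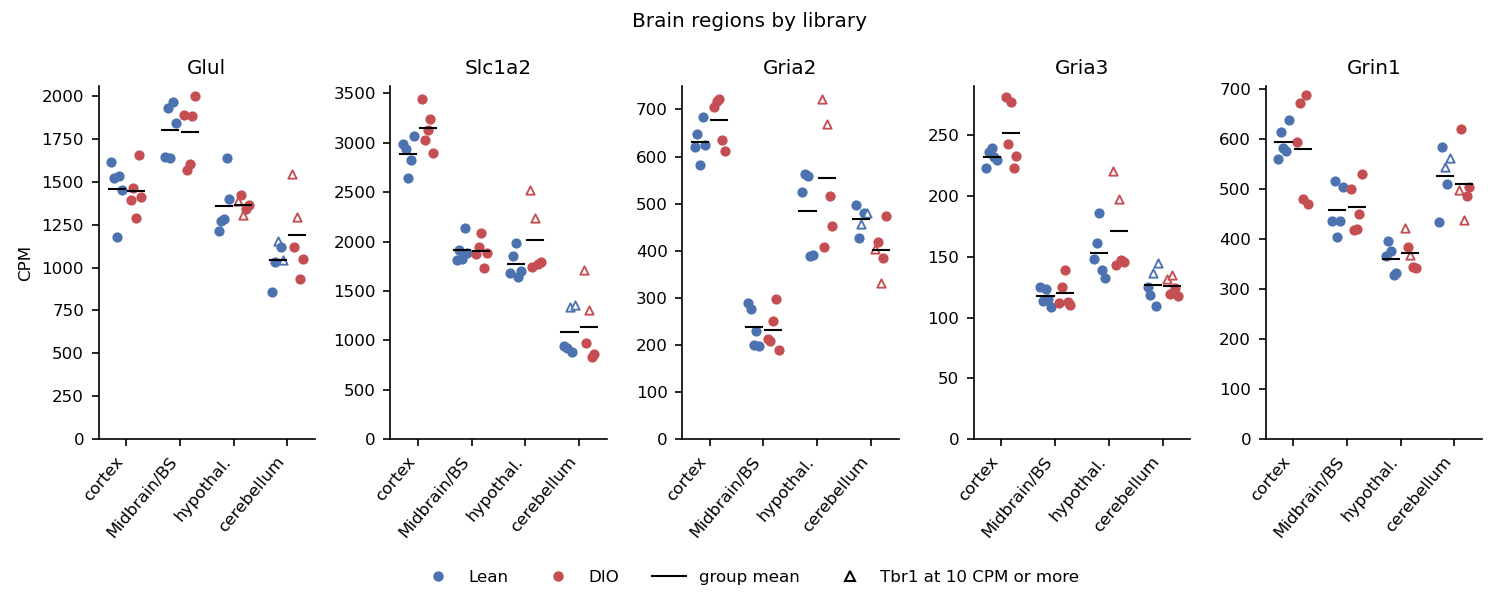
CPM of the 5 genes in every library of 4 brain regions, DIO in red and Lean in blue, with open triangles for libraries with at least 10 CPM of Tbr1. Slc1a2 and Gria3 are highest in cerebral cortex, Glul in Midbrain/BS, and the triangles in cerebellum lie above the other points for Slc1a2 (1307 to 1717 against 837 to 979 CPM).

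Adrenal was the highest tissue outside brain for all 3 receptor genes, with very unequal libraries. Gria2 was 0, 0.0417, 18.0, 1.10 and 30.0 CPM in DIO and 0, 13.8, 31.6, 4.93 and 32.0 CPM in Lean. Grin1 was 0.0576, 0.0417, 19.9, 1.58 and 32.0 CPM in DIO and 0.0902, 22.1, 31.2, 4.87 and 35.8 CPM in Lean. Dbh, the enzyme of noradrenaline synthesis in chromaffin cells of the medulla, was 0, 0, 794, 41.5 and 894 CPM in DIO and 0.135, 602, 810.3, 140.0 and 1014 CPM in Lean.

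The order of the libraries was nearly the same in all 3 genes: those with almost no Dbh had almost no Gria2 and Grin1, and those with little Dbh had little of both. The libraries with almost no Dbh were the same 3 that were low in the steroid gene Hsd3b1, so they were low in both adrenal markers. Gria3 went with it less closely, at 6.91, 6.67, 59.5, 36.5 and 65.1 CPM in DIO and 1.49, 23.6, 53.9, 34.5 and 57.4 CPM in Lean. The diet changes were -1.24 ± 1.27 for Gria2, 0.08 for Gria3 and -1.30 ± 1.28 for Grin1 (adjusted p from 0.833 to 0.992). Without the 3 libraries low in Hsd3b1 they were -0.71, 0.38 and -0.72 (0.535 to 0.698).

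**Figure D5:**
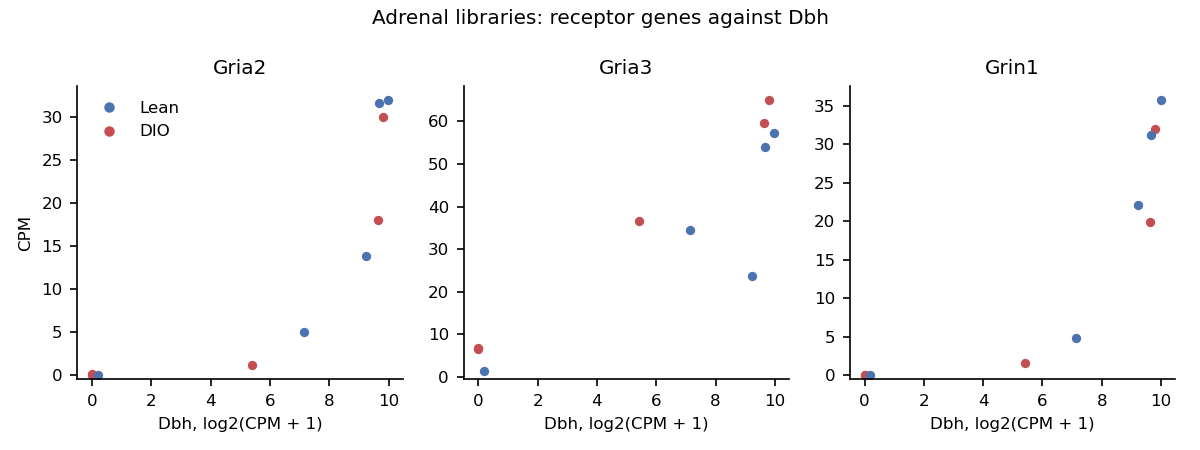
CPM of Gria2, Gria3 and Grin1 against Dbh, as log2(CPM + 1), in the 10 adrenal libraries, DIO in red and Lean in blue. Gria2 and Grin1 rise with Dbh from near 0 to 32.0 and 35.8 CPM, and libraries of both diets lie along the same range. The libraries near 0 in Dbh were also those low in the steroid gene Hsd3b1.

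In fat and liver Gria3 was low but read in each library, mostly below the filter, so it was also fitted with no filter. In eWAT it was 8.07, 5.13, 7.91, 6.74 and 5.62 CPM in DIO and 3.95, 3.58, 4.55, 2.68 and 3.95 CPM in Lean, with no overlap (0.69 ± 0.17, adjusted p = 0.0144; 25% of genes passed). In Retro FAT it was 4.09, 5.17, 4.12, 5.92 and 4.11 CPM in DIO and 2.02, 1.92, 0.474, 2.60 and 1.76 CPM in Lean, again with no overlap (1.09 ± 0.27, adjusted p = 0.0141; 18.5%). Both calls held in every alternative run, 14 in eWAT and 15 in Retro FAT. At such levels log2(CPM + 1) understates a change.

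In mesenteric fat Gria3 passed the filter, at 16.2, 16.4, 9.85 and 8.87 CPM in DIO and 7.27, 7.05 and 8.47 CPM in Lean. The groups did not overlap, but the change did not pass (0.64 ± 0.26, adjusted p = 0.0788), and on rescaled values it was 0.31 (0.401). Without DIO 2 and with no filter it was 0.52 (0.142). In subcutaneous fat Gria3 averaged 5.10 CPM in DIO and 5.74 in Lean (-0.01, adjusted p = 0.991 with no filter; 0.50, 0.101 without Lean 2 and Lean 3), and in brown fat 0.333 and 0.172 CPM (0.19, 0.0532). In liver Gria3 went the other way, at 1.41, 1.26, 2.62, 2.68 and 2.16 CPM in DIO and 6.75, 4.79, 4.18, 2.69 and 4.37 CPM in Lean (-0.87 ± 0.21, adjusted p = 0.0272 with no filter; 8.42% of genes passed). The groups did not overlap, though DIO 4 and Lean 4 nearly met, and the call was lost in 5 of 14 alternatives, without DIO 1, DIO 2, Lean 1, Lean 2 or Lean 3 (adjusted p from 0.0535 to 0.0650).

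Grin1 and Slc1a2 left traces in heart. Slc1a2 was 1.31, 1.69, 2.22, 2.79 and 1.67 CPM in DIO and 0.457, 0.490, 0.601, 0.669 and 0.205 CPM in Lean, with no overlap, and did not pass with no filter (0.97 ± 0.16, adjusted p = 0.0868; 0.0459% of genes passed). Grin1 was 0.131, 0.182, 0.139, 0.207 and 0.191 CPM in DIO, which was 3 or 4 reads in each library, and had no read in any Lean library, where a count of 0 allows up to 3 reads (0.23 ± 0.02, adjusted p = 0.00415; 0.0852 with edgeR on recovered reads). Snap25 was 0.5258 to 1.11 CPM in DIO and 0 to 0.315 in Lean heart, while the summed level of 8 neuronal genes was 11.6 to 16.8 and 9.95 to 18.2 CPM. The part of nerve tissue in these values was not tested. In eWAT Grin1 averaged 0.311 CPM in DIO and 0.0308 in Lean (adjusted p = 0.0417 with no filter), and this was lost in 11 of 14 alternatives.

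In soleus and Gastco red muscle the highest values of Slc1a2, Gria2 and Grin1 came from 1 library each, which also held Snap25. Soleus DIO 4 held 15.7 CPM of Slc1a2, 3.34 of Gria2 and 1.69 of Grin1, beside 13.3 CPM of Snap25. Gastco red muscle DIO 4 held 13.4, 2.89 and 1.57 CPM of the same members, beside 8.58 CPM of Snap25. EDL DIO 4 was the highest of its muscle too, at 4.99, 0.232 and 0.348 CPM, though Lean 2 nearly equalled it in Gria2 (0.228 CPM). In mesenteric fat DIO 1 held the most Gria2 (1.47 CPM) and Grin1 (1.74 CPM) beside 15.9 CPM of Snap25, but Slc1a2 was highest in DIO 2 (4.78 CPM), which had no read of Gria2. In Retro FAT DIO 4 held 16.7 CPM of Slc1a2 and no read of Gria2 or Grin1. Of the 8 neuronal genes in the values only Snap25 is given beside these members, and the part of nerve tissue was not tested.

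Likeness to other genes was described by Spearman's rho between the means of the 21 Lean tissue groups, for 3738 genes whose mean reached 1 CPM. Nearest to Glul were Adora1 (0.903), an adenosine receptor, Gm15535 (0.873) and Camsap2 (0.869). Nearest to Slc1a2 were Pgap1 (0.909), Shroom2 (0.899) and Jpx (0.891), and to Gria3 Armc9 (0.925), Tmem67 (0.918) and Sec62 (0.910). Gria2 was most like Mmp16 (0.948), Nrsn2 (0.947) and Tceal6 (0.942), and Grin1 was most like Ajm1 (0.948), Gm43737 (0.945) and Amer3 (0.943). Among the members themselves rho was 0.890 for Gria2 and Grin1, 0.716 for Slc1a2 and Gria3 and 0.113 for Glul and Slc1a2. The points share the 4 brain tissues and the many tissues near 0, so no p is given.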

How the data were processed

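RNA of 204 libraries (21 tissues, DIO or Lean) went through TruSeq stranded mRNA preparation and paired sequencing of 100 nt on a HiSeq 2000 machine, per the labels' protocols. FastQC, STAR, HTSeq and DESeq2 are named, without a version, per the submitters' processing notes. No source used here gives the genome build or whether counting used strand. The authors deposited CPM per gene, scaled to the whole library, and the genes held here take 13.0% to 23.1% of the reads of a library. Whole reads were recovered from the deposited CPM for 100% of values within 0.001 read, which gave totals of 6.58 to 129.7 M reads. Depth limits the receptor genes, which are near 0 outside brain. Of 13154 genes 1 was incomplete and left out, 1 column without a matching sample stayed unused, and among 398 pairs of replicates the lowest chi-square per degree of freedom was 3.48, so none was counted as a duplicate.

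Each tissue was tested alone with limma 3.58.1 (R 4.3.3; mean-variance trend, two-sided) on log2(CPM + 1), for genes whose mean reached 10 CPM, with Benjamini-Hochberg adjustment over all genes tested and a threshold of 0.05. Diet by tissue was an F test, and brain regions were compared with diet as a term. Alternatives were pseudocounts of 5 and 0.5, rescaling by factors from the median of ratios, leaving the filter out, array weights, edgeR 4.0.16 (quasi-likelihood) and DESeq2 1.42.0 on recovered reads, a single fit over all libraries, an index of 10 genes as covariate, Ttn as covariate in brown fat, leaving out the libraries that stood apart, and each library left out in turn. Chosen after seeing the data were the contrasts and ratios of regions without the Tbr1 libraries, the fat lists and depot differences without the libraries that stood apart, the white depots alone and the unfiltered fits of low members. The tests were tried on simulated reads. Named genes were the members, the called genes of each pathway list (up to 4 of the largest change), and the 3 genes most like each member. A few of these genes are not reported by name, but the counts over lists include them. The members and the lists were chosen with earlier results of these data known. Promoters are RefSeq entries on GRCm38.p6. Figures were drawn with matplotlib 3.10.9.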

Additional observations from a re-analysis of the deposited data

Results flagged for a closer look

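In duodenum the Lean 3 library held 139 CPM of Glul, far from the other 4 Lean libraries (38.0 to 55.9 CPM), a gap of 0.823 of the group's range. In liver the DIO 3 library held 136 CPM of Slc1a2, far below the other 4 DIO libraries (234 to 260.2 CPM), a gap of 0.786 of the range. Both were found among 83 groups of member and tissue checked, of which 2 had such a library, and chance alone marks about 1 in 20 groups.

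The diet effect on Glul differed between fat depots (F test in limma, adjusted p = 0.00178, with 60.5% of genes passing), with log2 changes from -1.42 in brown fat to -0.28 in Retro FAT. Among the white depots alone the same test gave adjusted p = 0.174. Between gut segments the diet effect on Glul differed too (F test, adjusted p = 0.0196, with 17.8% of genes passing), from 1.11 in duodenum to -0.29 in jejunum. Neither segment passed alone. The F test no longer passed without duodenum DIO 2 (adjusted p = 0.0506) or without duodenum Lean 1 (0.0507).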

How the results depend on the processing

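Of 5 called pairs of member and tissue, 95 values under alternatives gave 71 past the threshold, 24 short of it and 0 of opposite sign. The 720 values of uncalled pairs gave 15 past the threshold and 60 of opposite sign in 16 pairs. Members called in liver numbered 2 as reported, 1 on rescaled values, with edgeR or with the index of 10 genes, and 0 in the single fit, and 1 to 2 with a library left out. In kidney 0 became 1 with DESeq2. In gut 0 became 1 with array weights, DESeq2 or the single fit, and 0 to 1 with a library left out. In muscle, heart and adrenal 0 became 1 with no filter and 3 in the single fit. Over all genes, rescaling took the share of calls that were higher in DIO from 84.6% to 39.1% in mesenteric fat (1002 to 537 genes), 67.1% to 50.1% in eWAT, 65.8% to 51.8% in brown fat and 77.5% to 51.9% in liver. Mesenteric fat had 1580 calls with array weights, 557 with edgeR and 1505 without DIO 2, brown fat 304 in the single fit, and liver 57 with the index and 139 in the single fit, against 458. The causes were not tested.

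No paired analysis was possible because the labels do not tie libraries to mice. Few libraries per group, genes on part of the genome and receptor levels near 0 outside brain limit these results.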
